A study of Homo sapiens with 6 samples.

Results

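The genes examined here encode the lamins, proteins that hold them to the inner nuclear membrane and to chromatin, and a protease that cleaves prelamin A. The 10 members were taken by name, namely LMNA, LMNB1, LMNB2, LBR, TMPO, LEMD2, LEMD3, BANF1, ZMPSTE24 and PRR14, and all 10 were found among the 47470 genes with listed counts. RNA-seq had been performed on HEK293T cells, an established line of human embryonic kidney origin with the large T antigen of SV40. One group was left untreated, and the other was kept for 1 day in VPA (valproic acid, which blocks histone deacetylases) at 1 mM. The untreated cells are labelled WT for genotype, no altered allele is named for either group, and both groups came from this one line. There were 3 libraries in each group, 6 in all, and the sources do not say whether the cultures were separate, so that p-values measure the spread between libraries, which may be technical.

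The nuclear lamina is a meshwork of lamin filaments under the inner nuclear membrane. It carries A-type lamins, made from LMNA, and B-type lamins, made from LMNB1 and LMNB2, and it anchors gene-poor, transcriptionally quiet chromatin at the nuclear edge. Inner nuclear membrane proteins such as the lamin B receptor and the LEM-domain proteins bind lamins on one side and chromatin proteins on the other, in part through the small DNA-bridging protein BAF, the product of BANF1. In the study, the nuclear periphery was a site of interest, and the question put to the counts was whether the RNA of these genes differed between VPA-treated and untreated cells.

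Counts on genes totalled 18622267 to 18828495 per library. All 10 members passed the filter on low counts, as did 15298 genes in all. Values below are TMM-normalized counts scaled to the mean library, and adjusted p-values are from edgeR's quasi-likelihood test with Benjamini-Hochberg adjustment over these 15298 genes. A gene was called at an adjusted p under 0.05. Replicate libraries were close, with a biological coefficient of variation of 3.83%, and small differences in well-counted genes could pass. The TMM factors were 0.950 to 0.965 in the untreated libraries and 1.05 in the VPA-treated ones, and other scalings of the libraries shifted all genes together. Over all tested genes the median log2 fold change (VPA-treated over untreated) was 0.0058 with TMM, -0.0081 with DESeq2 size factors, 0.071 with upper quartiles, 0.14 with library totals and 0.28 when ribosomal protein genes set the scale. In bulk RNA, fewer cells of a kind and less RNA per cell cannot be told apart.

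With TMM, LMNA and PRR14 were higher in VPA-treated cells, and LMNB1, LMNB2, LBR, TMPO, LEMD3 and BANF1 were lower. LEMD2 and ZMPSTE24 did not pass the test. Thus 2 of the 10 members were called higher, against 32.9% of all tested genes, and 6 were called lower, against 30.0%. On the scale of ribosomal protein genes LBR, TMPO, LEMD2 and ZMPSTE24 were called higher instead, and LMNB2 and LEMD3 were not called. With ribosomal protein genes as the scale 6 members were called higher, against 60.6% of all tested genes, and 2 lower, against 5.60%. None of the 10 reached a log2 fold change of 1 in size, which 12.5% of tested genes did at an adjusted p under 0.05. The members' median log2 fold change was -0.14, beside 0.0058 for all tested genes, and they ranged from -0.67 for LMNB1 to 0.44 for LMNA. LMNA, LMNB1, BANF1 and PRR14 kept their direction and call under all 5 scalings and in every other alternative tried. The sizes moved with the scale. With ribosomal protein genes they were 0.71 for LMNA, -0.39 for LMNB1, -0.38 for BANF1 and 0.51 for PRR14. As a scaling shifts all genes together, values relative to the median of all tested genes are the same by construction, here to 2 decimals under all 5 scalings. These relative log2 fold changes were, for instance, -0.67 for LMNB1, -0.66 for BANF1, -0.33 for LEMD3, -0.28 for LMNB2, 0.24 for PRR14 and 0.43 for LMNA.

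**Figure D1:**
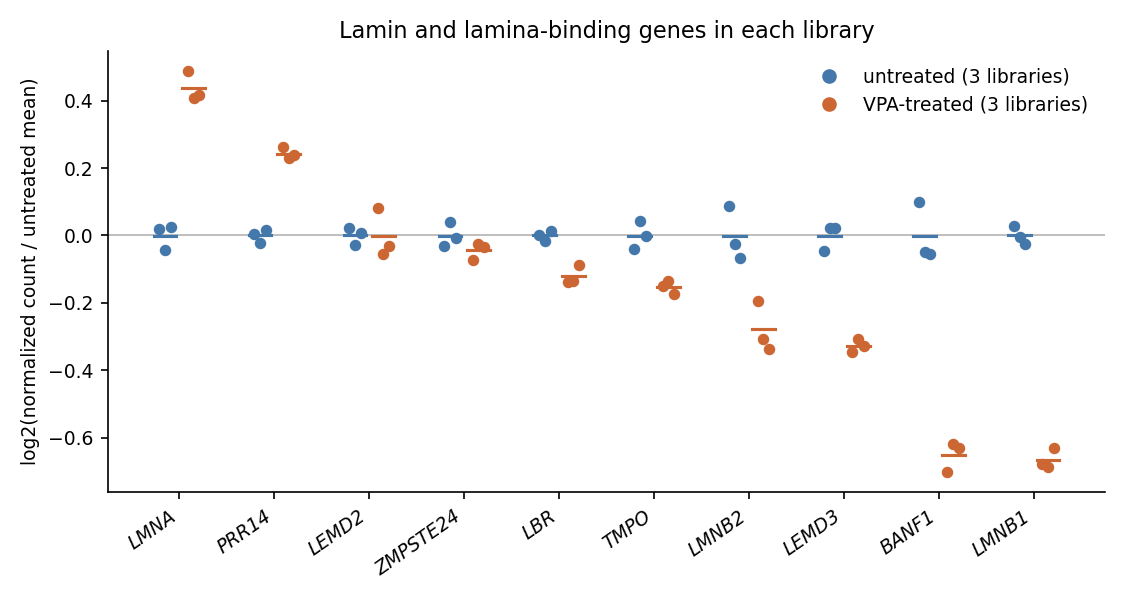
Log2 ratio of the TMM-normalized count in each library to the untreated mean (vertical axis) for the 10 members, with points for the 3 untreated and 3 VPA-treated libraries and bars for group means. With TMM, the VPA-treated points of LMNA and PRR14 lie above all untreated points, and those of LMNB1, LMNB2, LBR, TMPO, LEMD3 and BANF1 lie below them. The groups overlap for LEMD2 and ZMPSTE24. With ribosomal protein genes as the scale LBR, TMPO, LEMD2 and ZMPSTE24 were called higher, and LMNB2 and LEMD3 were not called.

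LMNA encodes lamins A and C, which are made from alternatively spliced transcripts and which gene-level counts do not separate. The gene lies on chromosome 1 from 156082573 to 156140081 on the plus strand (RefSeq, GRCh38.p14). Untreated libraries had 1122, 1075 and 1128 normalized counts of it, and VPA-treated libraries had 1555, 1472 and 1481. Every VPA-treated library was above every untreated one, in the raw counts as well. The mean rose from 1109 ± 29.2 to 1503 ± 45.7 (SD, n = 3 each), an increase of 35.6% and a log2 fold change of 0.44 (SE 0.047, adjusted p = 5.26e-08 in edgeR). Of all tested genes 76.2% had a lower log2 fold change.

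LMNB1 encodes lamin B1, a B-type lamin that keeps its farnesyl anchor and stays with the membrane. It lies on chromosome 5 from 126776623 to 126837020 on the plus strand. Its 3 untreated libraries held 5357, 5231 and 5158 normalized counts, and after VPA there were 3282, 3257 and 3391. The lowest untreated library stood well above the highest VPA-treated one. The mean fell by 36.9%, from 5249 ± 100.3 to 3310.0 ± 71.4 (SD, n = 3 each), and the log2 fold change was -0.67 (SE 0.039, adjusted p = 3.22e-12 in edgeR). This was the lowest value among the members, and 2.09% of all tested genes had a lower one.

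LMNB2, the gene of the other B-type lamin, spans bases 2428166 to 2456959 of chromosome 19, on the minus strand. Normalized counts of LMNB2 were 10262, 9487 and 9218 without VPA and 8445, 7809 and 7644 with it. The groups did not overlap after normalization, but they did in the raw counts, where the lowest untreated library had 8781 counts and the highest VPA-treated one 8813. The mean went from 9655 ± 542 to 7966 ± 423 (SD, n = 3 each), and the log2 fold change was -0.28 (SE 0.047, adjusted p = 2.64e-05 in edgeR). With ribosomal protein genes as the scale it was -0.0067 and not called.

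The difference between the log2 fold changes of LMNA and LMNB1 was 1.10 under each of the 5 scalings, which shift both genes alike. It was 1.07 to 1.13 when any one library was left out. Ratios within a library do not depend on the scaling at all. Per kilobase of transcript, LMNA made up 8.22% ± 0.33 of the summed lamin level before treatment and 14.2% ± 0.027 after it (SD, n = 3 each). With the union of all exons as the length, a choice made after seeing the data, these shares were 4.04% ± 0.17 and 7.18% ± 0.013. The untreated libraries gave 7.99%, 8.06% and 8.60%, and the VPA-treated ones 14.2%, 14.1% and 14.2%. LMNB1 went from 42.8% ± 0.73 to 34.3% ± 1.37, with 41.9%, 43.1% and 43.2% before treatment and 32.9%, 34.4% and 35.7% after it. The LMNB2 share was 49.0% ± 0.98 in untreated and 51.5% ± 1.36 in VPA-treated cells, and the groups all but touched, at 48.2% to 50.1% and 50.2% to 52.9%.

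**Figure D2:**
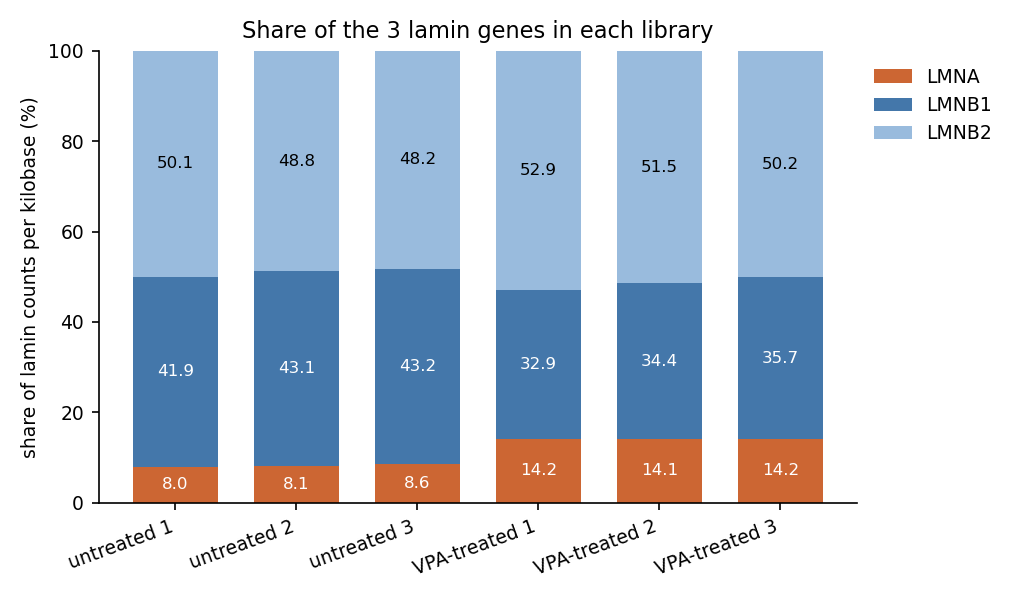
Stacked bars of the share of LMNA, LMNB1 and LMNB2 in the summed normalized counts per kilobase of the 3 lamin genes, in percent, for each library. The LMNA share was 7.99% to 8.60% in untreated and 14.1% to 14.2% in VPA-treated libraries, and the LMNB1 share was 41.9% to 43.2% and 32.9% to 35.7%.

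The ratio of LMNA to the sum of LMNB1 and LMNB2, per kilobase, was 0.0868, 0.0877 and 0.0941 in the untreated libraries and 0.165 in each VPA-treated one. This was 1.84-fold higher, a log2 difference of 0.88. LMNB1 over LMNB2 was 0.837, 0.884 and 0.897 in untreated and 0.623, 0.669 and 0.711 in VPA-treated libraries, a log2 difference of -0.39. LBR over LMNA was 5.02, 5.17 and 5.03 against 3.29, 3.48 and 3.57, a log2 difference of -0.56. In all 3 ratios the groups did not overlap. Each gave p = 0.1 in a two-sided exact permutation test over libraries, which is the smallest p that 3 libraries against 3 allow. These p-values were not adjusted over the 3 ratios, and the ratios share genes.

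The sequence upstream of LMNB2, the lamin gene with the most counts, is shown here as the 250 bases before the start of the MANE Select transcript, none of which a GENCODE 44 exon covers. The stretch is chr19:2456960-2457209 on the minus strand in hg38, written 5′ to 3′. Capitals mark matches to the letters of a GC box (GGGCGG) or of a cell cycle homology region (CHR) in its form TTTGAA. The form TTCGAA of the CHR and the CCAAT box were searched too. Both strands were searched, and the marked matches do not overlap.
LMNB2: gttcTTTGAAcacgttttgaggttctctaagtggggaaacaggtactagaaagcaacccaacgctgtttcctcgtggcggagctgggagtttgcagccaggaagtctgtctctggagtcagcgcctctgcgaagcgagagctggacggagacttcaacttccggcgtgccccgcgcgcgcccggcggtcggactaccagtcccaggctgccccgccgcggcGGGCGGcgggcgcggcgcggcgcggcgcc
Counted back from the transcript start, the CHR match began at base -246 and the GC box at -29.

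Over the 250 bases before the start, the members were compared with 19061 promoters of protein-coding genes. A GC box was present in 9 of the 10 members and in 59.9% of all promoters, and BANF1 was the member without one. A CCAAT box was present in 5 of the 10 members, 1 of them called higher and 4 called lower with TMM, and in 34.4% of all promoters. A CHR match was present in LMNB2 and LBR and in 11.1% of all promoters. An E2F match (TTTCCCGC, TTTGGCGC, TTTCGCGC or TTTGCCGC) was present in LEMD3 and in 3.74% of all promoters. The cyclic AMP element TGACGTCA, found in 2.46%, and TATAAA, found in 9.19%, matched no member. The window of BANF1 held none of these 6 motifs. However, the windows of BANF1 and LMNB1 lie wholly within annotated 5′ exons of other transcripts, so they may not be the promoters in use. Those of LMNA and LBR lie within the RefSeq spans of the genes, and those of TMPO and PRR14 in part. The same may therefore hold for them. GC content was 75.6% for LMNB1, 66.4% for LMNB2 and 57.2% for BANF1, beside a median of 63.2% for all promoters. Adjacent GC boxes overlapped each other in LBR and LEMD2.

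LBR encodes the lamin B receptor, an inner nuclear membrane protein that binds B-type lamins and the heterochromatin protein HP1 and that has sterol reductase activity. It spans bases 225401502 to 225428821 of chromosome 1, on the minus strand. LBR had 6642, 6559 and 6701 normalized counts in untreated libraries and 6027, 6046.5 and 6239 in VPA-treated ones, so that the groups did not overlap, although the raw counts did. The mean went from 6634 ± 71.2 to 6104 ± 117 (SD, n = 3 each), and the log2 fold change was -0.12 (SE 0.038, adjusted p = 0.0095 in edgeR). The direction rests on the scaling, as the log2 fold change was 0.011 with library totals (adjusted p = 0.804) and 0.15 with ribosomal protein genes (adjusted p = 0.0017).

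TMPO encodes the isoforms of LAP2, LEM-domain proteins that bind lamins and BAF, and lies on chromosome 12 from 98515573 to 98550351 on the plus strand. The untreated libraries had 6597, 6986 and 6781 normalized counts and the VPA-treated ones 6121, 6182 and 6020.3. No VPA-treated library reached the lowest untreated one. The log2 fold change was -0.15 (SE 0.039, adjusted p = 0.0019 in edgeR), from 6788 ± 195 to 6108 ± 81.9 (SD, n = 3 each). It was 0.12 with ribosomal protein genes as the scale (adjusted p = 0.0084). TMPO shares 646 exonic bases with TMPO-AS1 on the opposite strand, and as the sources used here do not say how the counting treated strand, reads from that stretch cannot be assigned with certainty. TMPO-AS1 had 215 ± 26.9 and 177 ± 10.8 normalized counts, far fewer than TMPO. TMPO also has 2 annotated pseudogenes, neither of them listed in the counts, and reads with more than one possible place were not counted.

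LEMD3 encodes MAN1, a LEM-domain protein that binds SMAD proteins and dampens TGF-beta and BMP signalling, and lies on chromosome 12 from 65169583 to 65248355 on the plus strand. It had 1308, 1373 and 1373 normalized counts in untreated libraries and 1063, 1092 and 1077 in VPA-treated ones. The groups were well apart, and the mean fell from 1351 ± 37.9 to 1077 ± 14.8 (SD, n = 3 each), and the log2 fold change was -0.33 (SE 0.047, adjusted p = 3.26e-06 in edgeR). With ribosomal protein genes as the scale it was -0.055 and not called. LEMD2, a LEM-domain protein that takes part in sealing the envelope after mitosis, spans bases 33771213 to 33789130 of chromosome 6, on the minus strand. Its counts were 1078, 1040.5 and 1067 against 1123, 1021 and 1038, and the VPA-treated libraries included both the highest and the lowest value. The log2 fold change was -0.0012 (SE 0.051, adjusted p = 0.985 in edgeR), but LEMD2 was called higher with library totals (0.13, adjusted p = 0.035) and with ribosomal protein genes as the scale (0.27, adjusted p = 0.00012). Its raw counts did not overlap, at 994 to 1041 in untreated and 1060 to 1172 in VPA-treated libraries.

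BANF1 encodes BAF, which crosslinks DNA and binds the LEM domain. It lies on chromosome 11 from 66002503 to 66004149 on the plus strand, and its transcript of 731 bases in 3 exons is the shortest of the members'. BANF1 had 2907, 2620.0 and 2608 normalized counts in untreated libraries and 1666, 1765 and 1750.2 in VPA-treated ones. The groups were far apart, in raw counts too. The mean fell by 36.3%, from 2712 ± 169 to 1727 ± 53.1 (SD, n = 3 each), and the log2 fold change was -0.65 (SE 0.048, adjusted p = 1.35e-10 in edgeR), close to that of LMNB1. Of all tested genes 2.18% had a lower log2 fold change. BANF1 has 5 annotated pseudogenes, none of them listed in the counts, and reads with more than one possible place were not counted, so that its level is uncertain to that extent.

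ZMPSTE24 encodes the zinc metalloprotease that cleaves prelamin A to mature lamin A. It lies on chromosome 1 from 40258236 to 40294180 on the plus strand, and shares 150 exonic bases with a processed pseudogene on the opposite strand. Its normalized counts were 2055, 2160.5 and 2091 in untreated libraries and 1997, 2066 and 2054 in VPA-treated ones, and the groups overlapped. The log2 fold change was -0.044 (SE 0.042, adjusted p = 0.378 in edgeR), and 0.23 with ribosomal protein genes as the scale (adjusted p = 7.87e-05). PRR14, which tethers HP1-bound heterochromatin to the lamina, lies on chromosome 16 from 30650778 to 30656413 on the plus strand. It had 1627, 1597 and 1641 normalized counts in untreated libraries and 1945, 1901 and 1912 in VPA-treated ones. All VPA-treated libraries were higher, and the mean rose from 1622 ± 22.2 to 1919 ± 23.2 (SD, n = 3 each), by 18.3%, with a log2 fold change of 0.24 (SE 0.043, adjusted p = 3.91e-05 in edgeR).

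**Figure D3:**
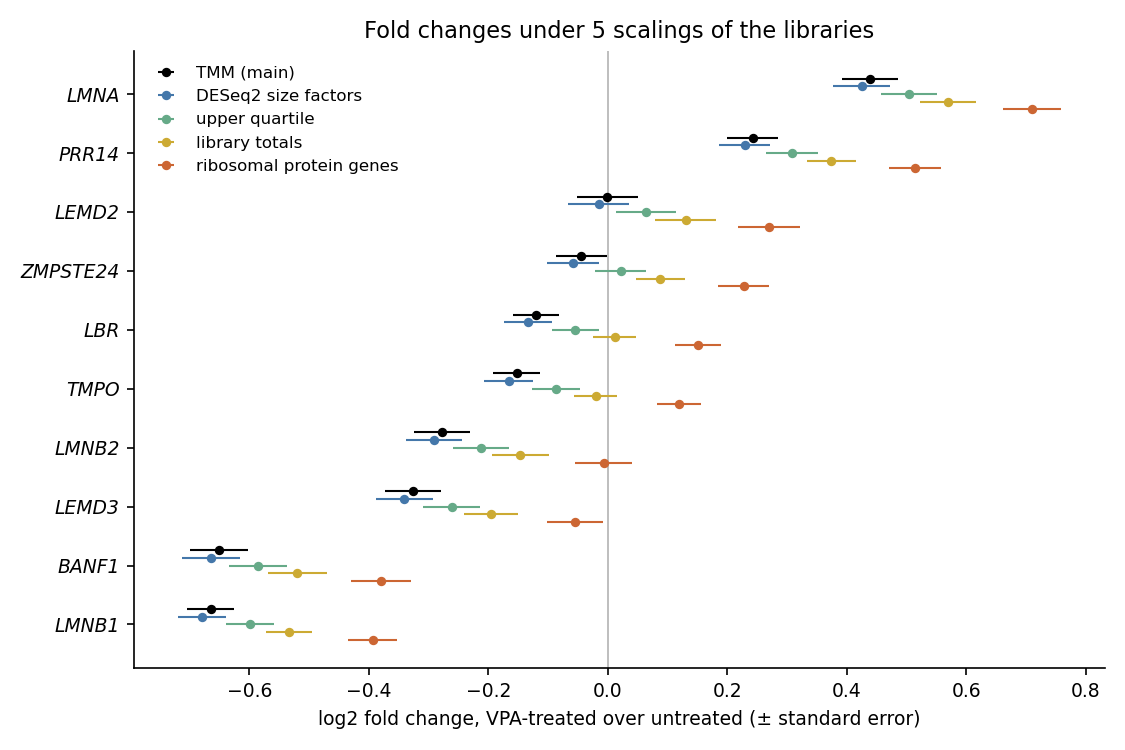
Log2 fold change (VPA-treated over untreated, horizontal axis) of each member under 5 scalings of the libraries, with bars for the standard error. LMNA and PRR14 stay above 0 and LMNB1 and BANF1 below 0 under each, LBR and TMPO cross 0, and with ribosomal protein genes as the scale LMNB2 and LEMD3 come close to 0, at -0.0067 and -0.055.

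Levels were compared between genes as normalized counts per kilobase of the MANE Select transcript. In untreated cells BANF1 was the highest member with 3709 ± 232 (SD, n = 3), followed by LMNB2 with 2084 ± 117, LMNB1 with 1816 ± 34.7, LBR with 1770.0 ± 19.0 and TMPO with 1641 ± 47.1. PRR14 with 780.5 ± 10.7 and ZMPSTE24 with 707 ± 18.0 stood lower. The lowest were LEMD2 with 361 ± 6.50, LMNA with 349 ± 9.20 and LEMD3 with 283 ± 7.93. The neighbours LMNB1 and LBR overlapped between libraries, as did LEMD2 and LMNA, and the other neighbours did not. BANF1 was above 97.7% of the tested genes with a length, LMNB1 above 94.5% and LMNA above 70.9%.

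In VPA-treated cells BANF1 had 2363 ± 72.6 normalized counts per kilobase and LMNB2 1719 ± 91.3, still the highest members. LMNB1, at 1145 ± 24.7, came to lie behind LBR with 1629 ± 31.2 and TMPO with 1477 ± 19.8. LMNA, at 473 ± 14.4, came to lie above LEMD2 with 361 ± 18.6, while PRR14 had 924 ± 11.2, ZMPSTE24 685 ± 12.4 and LEMD3 225 ± 3.10. The order depends on the length used. With the union of all exons, which is 8141 bases for LMNA, LMNA was the lowest member in untreated cells, and the B-type lamins still followed BANF1, while in VPA-treated cells LMNB2 with 1477 normalized counts per kilobase stood above BANF1 with 1154.

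**Figure D4:**
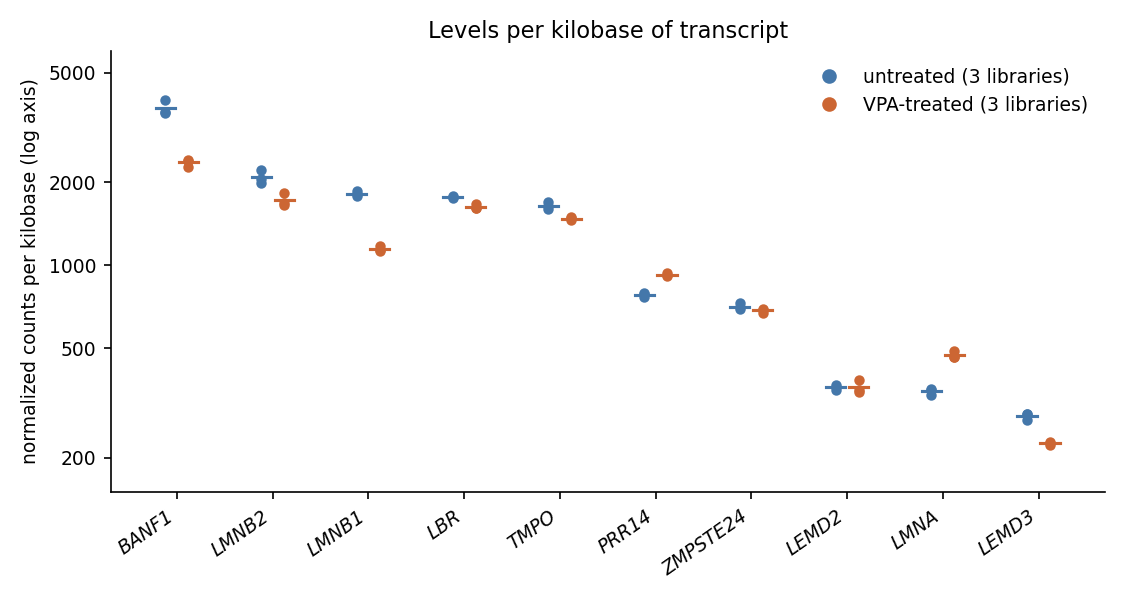
Normalized counts per kilobase of transcript (log scale) for the 10 members in order of the untreated level, with points for libraries and bars for group means. By this length BANF1 leads in both groups with 3709 and 2363, LMNB1 moves from 1816 to 1145, and LMNA from 349 to 473.

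Other genes of the nuclear envelope were described from lists. The direction of a call can rest on the scaling, which shifts all genes together. Each list is therefore also given with ribosomal protein genes as the scale, where the median of all tested genes was 0.28. For each list below, the shares of all tested genes to set beside it were 32.9% higher and 30.0% lower with TMM. With ribosomal protein genes they were 60.6% higher and 5.60% lower. All 4 listed genes for enzymes of the lamin tail were lower, with a median log2 fold change of -0.34. With ribosomal protein genes 1 was higher and 0 were lower. ZMPSTE24, which cleaves prelamin A, was counted with the members and not in this list. RCE1, the endoprotease that trims the farnesylated tail, had a log2 fold change of -0.42 (SE 0.074, adjusted p = 4.21e-05 in edgeR), and FNTA, a farnesyltransferase subunit, had -0.25 (SE 0.058, adjusted p = 0.00074). Among 12 tested of 14 other inner nuclear membrane genes 2 were higher, 5 lower and 5 neither, with a median of -0.088, and 7 were higher and 1 lower with ribosomal protein genes. TOR1A, a torsin ATPase of the envelope lumen, had -0.53 (SE 0.051) and ANKLE2, which controls the phosphorylation of BAF, had -0.35 (SE 0.039), while TM7SF2, a sterol reductase related to LBR, had 0.30 (SE 0.067) and PRR14L 0.21 (SE 0.043). EMD, the gene of emerin, is listed at 0 in all libraries, as are all 1092 listed genes of the X chromosome, and was not tested.

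Of 32 nucleoporin genes 25 were lower, 1 was higher and 6 were neither, with a median log2 fold change of -0.19 and a range of -0.47 to 0.15. Over all tested genes 30.0% were lower and 32.9% higher, with a median of 0.0058. With library totals 3 were higher and 13 lower, where 6713 and 2372 of the 15298 tested genes were. With ribosomal protein genes 14 were higher and 4 lower, beside 60.6% and 5.60% of all tested genes. On the ribosomal protein scale the median of the nucleoporins was 0.079, below the 0.28 of all tested genes. NUP188, of the inner ring, had a log2 fold change of -0.47 (SE 0.041, adjusted p = 2.01e-09 in edgeR). POM121, a membrane nucleoporin, had -0.42 (SE 0.041), but reads can be shared with the near-identical POM121C. NUP210, another membrane nucleoporin, was the one called higher, with 0.15 (SE 0.041).

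Of 10 genes that act on BAF or reseal the envelope after mitosis 8 were lower and 2 were neither, with a median log2 fold change of -0.18, and 4 were higher and 0 lower with ribosomal protein genes. CC2D1B, a regulator of ESCRT-III, had -0.33 (SE 0.048) and CHMP4B, an ESCRT-III subunit, had -0.19 (SE 0.042). Of 9 chromatin partners of the lamina 7 were lower, 1 higher and 1 neither, with a median of -0.26, and 2 were higher and 3 lower with ribosomal protein genes. CBX5, which encodes HP1 alpha, fell from a mean of 4184 ± 225 to 2757 ± 153 (SD, n = 3 each), and the log2 fold change was -0.60 (SE 0.047, adjusted p = 3.98e-10 in edgeR). SETDB1, an H3K9 methyltransferase, had -0.41 (SE 0.044), and CBX1, which encodes HP1 beta, had 0.13 (SE 0.041).

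The 6 LINC complex genes, which link the lamina to the cytoskeleton, formed the last list. Of the 5 tested 3 were higher, 0 were lower and 2 were neither, with a median log2 fold change of 0.29, and all 5 were higher with ribosomal protein genes. SYNE1, which encodes nesprin-1, rose from 374 ± 9.06 to 845 ± 21.6 (SD, n = 3 each), and the log2 fold change was 1.17 (SE 0.059, adjusted p = 1.99e-13 in edgeR). SYNE3, which encodes nesprin-3, had 118 ± 6.30 and 286 ± 15.2, a log2 fold change of 1.27 (SE 0.092, adjusted p = 1.12e-10). Both were past a log2 fold change of 1, which no member did.

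**Figure D5:**
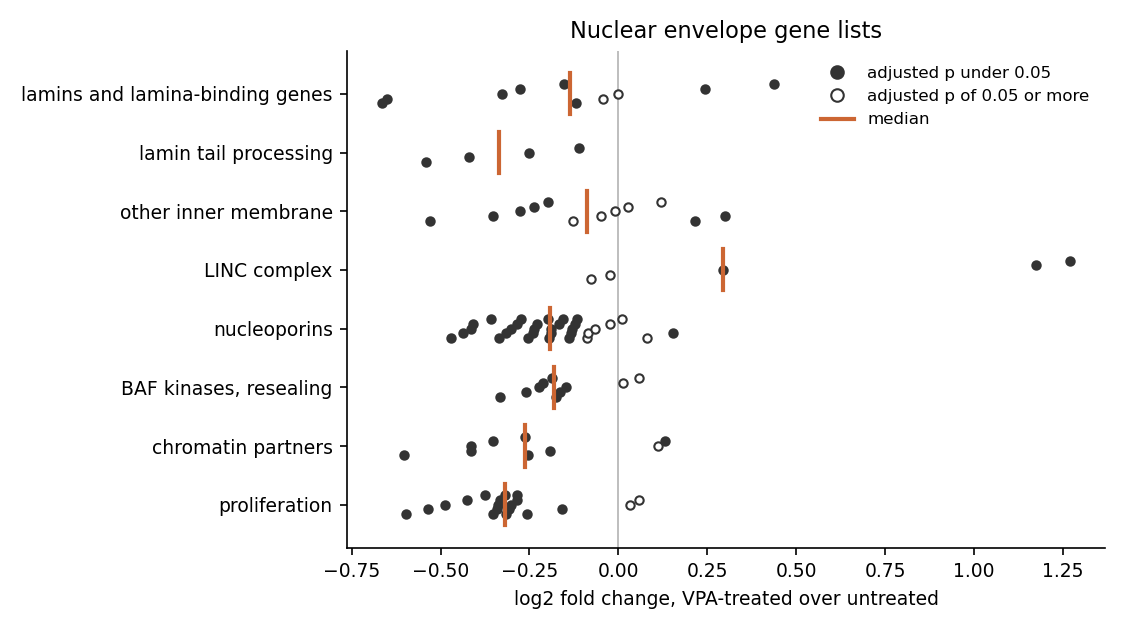
Log2 fold change (VPA-treated over untreated, horizontal axis) of the tested genes of each list with TMM, one point per gene, filled where the adjusted p was under 0.05, with a bar at the median of each list. The medians are -0.14 for the members, -0.34 for the lamin tail enzymes, -0.19 for the nucleoporins and 0.29 for the LINC complex.

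Of 19 proliferation genes 17 were lower and 2 neither, with a median log2 fold change of -0.32, beside 30.0% of all tested genes called lower. With ribosomal protein genes as the scale 5 were lower and 3 higher, beside 5.60% and 60.6% of all tested genes. On that scale the median was -0.047 for the proliferation genes and 0.28 for all tested genes. With TMM their summed normalized counts were 119371 to 124862 in untreated and 100040 to 101169 in VPA-treated libraries. CCNA2, a cyclin, had a log2 fold change of -0.60 (SE 0.045) and TYMS, thymidylate synthase, had -0.53 (SE 0.046). The 2 that did not pass, named after their values were seen, were MKI67 with 0.059 and TOP2A with 0.033. None of the 19 genes was at 0, and their part in the lamin results was not tested.

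The kidney label was checked with 7 embryonic kidney genes, of which 6 were tested, 2 were higher and 2 lower. PAX2 had 29.6 ± 0.39 and 142 ± 1.07 normalized counts, LHX1 a log2 fold change of 0.79 and EYA1 of -0.68, and PAX8 had 2 counts in all 6 libraries together. The summed level was 2228 to 2433 in untreated and 1930.0 to 1959 in VPA-treated libraries. Of 5 markers of other cell types 2 were tested and both were higher, COL1A1 with 433 ± 27.9 and 1288 ± 85.1 normalized counts and EPCAM with a log2 fold change of 1.11. PTPRC, PECAM1 and ALB had 12, 5 and 2 counts over all libraries. The summed level of these 5 went from 437 to 478 in untreated libraries to 1264 to 1428 in VPA-treated ones, and its part in the results was not tested.

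The genes whose log2 normalized counts ran most like those of LMNA over the 6 libraries were TMEM67 (Pearson r = 0.9996), PRR14 (r = 0.9992) and ETNK2 (r = 0.9990). For LMNB1 they were ATF5 (r = 0.9998), NDUFS3 (r = 0.9995) and BID (r = 0.9994). These values are descriptive, since the 6 points form 2 groups and share library and depth, and 352 tested genes had an r above 0.99 with LMNA and 207 with LMNB1.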

How the data were processed

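The authors used SOAPnuke to clean the reads of strand-specific mRNA libraries and STAR to align them to hg38, and they deposited raw counts per gene from htseq-count, 1 set per library, without normalization. The submitters' processing notes give STAR 2.7.10b and HTSeq 2.0.1. The gene annotation and how strand was handled in counting are not given in the sources used here. Summary lines that name no gene were left out, and their shares of the reads listed were 6.80% to 7.69% off genes, 1.97% to 2.10% ambiguous and 2.81% to 2.92% not uniquely placed.

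Counts were tested with edgeR 4.0.16 (limma 3.58.1, R 4.3.3), with TMM normalization, filterByExpr at a count minimum of 10, treatment as the one term of a robust quasi-likelihood fit, and 0.125 as prior count. SEs were derived from the log2 fold change and its F statistic. Alternatives were DESeq2 1.42.0, 4 other scalings, 2 other filters, exon-union lengths, a replicate block and each library left out. Totals per library differed little, so depth limits the groups alike. Positions are from RefSeq (GRCh38.p14), strand, exons and lengths from GENCODE 44, and promoters from hg38. Of the tested genes 92.6% had a length.

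The members and lists were chosen with earlier results of these data known. All members were named with values. From each list at most 2 genes in each direction, those of smallest adjusted p, were named, plus EMD, and for LMNA and LMNB1 the 3 genes of highest r. The ChIP-seq, Hi-C and imaging data of the study were not analysed here, and 1 marker gene and 1 upstream sequence are not reported here.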

Additional observations from a re-analysis of the deposited data

How the results depend on the processing

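Of 140 results of single members under an alternative, 122 kept direction and call, 5 lost the call and 13 turned direction, of which 5 were called in the new direction. Of these 5, 3 had not been called with TMM, namely LEMD2 with library totals and with ribosomal protein genes and ZMPSTE24 with the latter. The scaling accounts for most of these, since it shifts all genes alike. With upper quartiles LEMD2 had a log2 fold change of 0.064 and ZMPSTE24 of 0.021, and LBR with -0.055 and TMPO with -0.087 were not called. With library totals LBR had 0.011, LEMD2 0.13 and ZMPSTE24 0.088, and TMPO with -0.021 was not called. On that scale 6713 genes in all were higher against 5037, and 2372 were lower against 4591. The other envelope genes are the 6 lists from lamin tail enzymes to chromatin partners, LINC complex included. Of them 14 were higher and 25 lower against 7 and 49. With ribosomal protein genes LBR had 0.15, TMPO 0.12, LEMD2 0.27 and ZMPSTE24 0.23, 9274 genes were higher against 5037 and 857 lower, members were 6 higher and 2 lower, and other envelope genes were 33 higher and 8 lower. LEMD2, which was not called, had 0.021 among genes with at least 10 counts in every library and -0.045 to 0.024 with a library left out; the cause was not tested. The 3 lamin ratios kept their direction in each alternative. A replicate block could not change them, and exon-union lengths cancel in the log2 differences of LMNB1 over LMNB2 and of LBR over LMNA. No member's call changed when a library was left out.

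Whether the replicate numbers pair the samples is not stated, and the counts did not settle it. Deviations from the group means correlated at r = 0.126, 0.018 and 0.071 between libraries of the same number and at -0.098 to 0.031 otherwise. All libraries but untreated 2 correlated best with their own number, and untreated 2 did so with VPA-treated 3 (r = 0.031). With a replicate block 5357 genes were higher and 5100 lower, against 5037 and 4591 without it, and the members stayed at 2 higher and 6 lower. The SE of each member was smaller with the block, for instance 0.030 against 0.039 for LMNB1 and 0.028 against 0.047 for LMNB2. The lowest library total was 18622267 and every member was well counted, so that depth limited none of these values, and 3 libraries per group limited the ratio tests.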
